A study of Mus musculus with 3 samples.

Results

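The promoters of the numbered zinc finger genes were examined: all protein-coding mouse genes outside chromosomes X and Y whose symbol is Zfp followed by digits only. These were 358 of 20807 autosomal protein-coding genes, chosen by name and not by any measured value. They were called clustered when the transcription start site (TSS) of another such gene lay within 200 kb, which held for 226, and single otherwise, which held for 132. The cells were long-term haematopoietic stem cells (LT-HSCs), the blood stem cells with the most lasting capacity to rebuild blood, sorted from c-Kit-enriched marrow of female wild-type C57BL/6 mice (C57Bl6/J in the study's methods) at 24 months of age. The assay was DOGMA-seq, a joint measurement of open chromatin (ATAC), RNA and surface proteins bound by tagged antibodies within each cell. Each of the 3 libraries came from 1 pool of cells, so there were no replicates, no test between groups was possible, and every interval below is a 95% interval for counting error only. The pooled animals cannot be told apart, and neither RNA levels nor young cells were analysed here.

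Zfp genes encode proteins with zinc fingers, small folds held by a zinc ion that in the C2H2 type are strung in arrays and read DNA. A large share of them also carries a KRAB box at the amino end, which binds TRIM28 and through it recruits SETDB1 and HP1 proteins, the machinery that lays down H3K9 methylation over transposable elements and imprinted loci. KRAB zinc finger genes multiplied by local duplication, so that many lie side by side in clusters of near-identical copies, while zinc finger proteins without a KRAB box are often single, old genes that act as general transcription factors, RNA-binding proteins or cofactors.

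The promoter level of a gene was the number of ATAC fragments that touched the 2001 bp centred on its 5′-most annotated TSS, summed over 3629 cells with at least 10 antibody tags. These cells were taken from the 3724 barcodes of the antibody table, all of which were also in the ATAC library and among the 4369 barcodes called as cells. They held 38554133 nuclear fragments, with a median of 10300 per cell (lowest 3859, highest 45151), so that 100 fragments in a window equal 2.59 fragments per 1000000 nuclear fragments (FPM). Among marker promoters fixed by cell type, Kit (1681 fragments) and Hlf (1279) were open, the 3 T cell and 3 B cell markers ranged from 2 to 127 fragments with none open, and the 4 myeloid markers from 5 to 96 with none open. Of the 8 LT-HSC markers 3 were open at this TSS (Kit, Hlf and Tek), and Mecom had 19 fragments there but 1644 at its principal transcript. The megakaryocyte markers Itga2b (829), Pf4 (716) and Gp9 (514) were open, as was 1 of 3 erythroid markers.

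The 7 promoters printed here are the extremes that the levels turn on: the highest and the lowest clustered and single members, then the partner in the neighbouring pair with the largest difference, then the neighbouring pair with the largest difference among windows that reads can be placed in. Each is the 300 bases from 250 before the TSS to the first 50 transcribed, on the strand of transcription, from GRCm38.p6 (the mm10 build). Capitals mark every match, on either strand, to GGGCGG (the core of Sp and KLF sites), CCAAT (bound by NF-Y), CCGGAA (the core of ETS sites), TGACGTCA (the CREB and ATF site), TATAAA (the TATA box) or AAGATGGC (a YY1 site). These matches are a description of letters and no evidence of binding. Zfp78 lies at chr7:6363030-6363329 (+), Zfp936 at chr7:43113979-43114278 (+), Zfp687 at chr3:95015399-95015698 (-), Zfp616 at chr11:74069705-74070004 (+), Zfp715 at chr7:43313245-43313544 (-), Zfp712 at chr13:67061121-67061420 (-) and Zfp708 at chr13:67097927-67098226 (-).
Zfp78: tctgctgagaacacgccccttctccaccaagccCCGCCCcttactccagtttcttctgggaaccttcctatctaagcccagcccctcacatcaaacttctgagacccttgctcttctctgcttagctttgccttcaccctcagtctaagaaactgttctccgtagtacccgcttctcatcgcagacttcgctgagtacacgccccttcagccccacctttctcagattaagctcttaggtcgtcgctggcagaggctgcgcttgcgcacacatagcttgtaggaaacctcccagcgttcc
Zfp936: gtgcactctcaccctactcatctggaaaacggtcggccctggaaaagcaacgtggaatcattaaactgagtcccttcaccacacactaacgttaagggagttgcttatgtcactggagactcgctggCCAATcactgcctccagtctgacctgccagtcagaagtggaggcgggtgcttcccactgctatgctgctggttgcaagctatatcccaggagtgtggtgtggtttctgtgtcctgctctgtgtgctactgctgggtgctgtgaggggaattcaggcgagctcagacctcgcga
Zfp687: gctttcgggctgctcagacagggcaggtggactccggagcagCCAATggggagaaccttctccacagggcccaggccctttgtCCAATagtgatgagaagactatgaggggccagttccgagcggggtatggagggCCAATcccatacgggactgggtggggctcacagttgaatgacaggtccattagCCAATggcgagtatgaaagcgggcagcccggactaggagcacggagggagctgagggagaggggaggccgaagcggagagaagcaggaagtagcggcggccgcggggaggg
Zfp616: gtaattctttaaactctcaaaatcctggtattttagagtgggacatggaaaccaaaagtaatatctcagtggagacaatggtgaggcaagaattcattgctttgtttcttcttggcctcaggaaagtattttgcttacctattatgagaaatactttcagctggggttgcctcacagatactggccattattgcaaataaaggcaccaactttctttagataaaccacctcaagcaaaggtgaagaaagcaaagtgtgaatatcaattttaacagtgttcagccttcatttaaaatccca
Zfp715: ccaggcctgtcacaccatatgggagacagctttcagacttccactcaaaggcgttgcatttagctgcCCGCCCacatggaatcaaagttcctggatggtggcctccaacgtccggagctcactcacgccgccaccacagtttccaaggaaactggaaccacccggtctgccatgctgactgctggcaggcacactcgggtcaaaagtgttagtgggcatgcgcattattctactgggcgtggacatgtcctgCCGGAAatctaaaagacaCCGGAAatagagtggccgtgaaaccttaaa
Zfp712: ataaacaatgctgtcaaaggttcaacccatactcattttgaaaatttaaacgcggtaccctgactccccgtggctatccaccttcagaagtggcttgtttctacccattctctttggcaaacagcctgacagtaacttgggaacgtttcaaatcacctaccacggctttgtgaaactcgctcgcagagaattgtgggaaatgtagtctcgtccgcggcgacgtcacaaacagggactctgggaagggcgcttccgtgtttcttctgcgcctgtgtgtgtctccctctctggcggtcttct
Zfp708: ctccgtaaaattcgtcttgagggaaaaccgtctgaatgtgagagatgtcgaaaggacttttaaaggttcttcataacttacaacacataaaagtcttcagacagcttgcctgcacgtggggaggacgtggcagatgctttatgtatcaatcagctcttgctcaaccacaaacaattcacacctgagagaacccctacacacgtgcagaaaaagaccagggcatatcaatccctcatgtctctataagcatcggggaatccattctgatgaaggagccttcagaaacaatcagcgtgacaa

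Zfp78, the highest clustered member with 4188 fragments (95% interval 4062 to 4317), had 12 CpG in these 300 bases and a single GGGCGG match. Zfp687, the highest single member with 4204 fragments (4078 to 4333), had 15 CpG and 4 CCAAT matches. Zfp687 encodes a zinc finger partner of the reader protein ZMYND8. Zfp936 and Zfp616 stood at 0 fragments, which allows up to 3 (a limit on 1 side, where the intervals of other levels have 2). Zfp616 had 0 CpG here, and its RefSeq TSS lay 9058 bp away and held 2 fragments. Zfp936 had 9 CpG, and its RefSeq TSS lay 63361 bp away and held 7 fragments. Several members tied at 0, and these were shown because the largest share of their windows occurs once in the genome among clustered and single members at 0, a choice made after the values were seen. By 50-base stretches that share was 98.2% for Zfp616 but 70.7% for Zfp936, so part of the Zfp936 window may not be reached by reads. Zfp715, the neighbour of Zfp936 at a distance of 199 kb, held 1045 fragments (983 to 1110) at this TSS and 68 at its principal transcript, with 13 CpG, 1 GGGCGG and 2 CCGGAA matches. Zfp712 and Zfp708 lie 36.8 kb apart in the same orientation, with 16 and 9 CpG and no match to any of the 6 motifs. Zfp712 held 883 fragments (826 to 943) and Zfp708 held 6 (2.20 to 13.1), but another TSS of Zfp708, 16431 bp away, held 428.

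Most members had more fragments at the promoter than the median coding gene, and single members more than clustered ones. The median was 591 fragments over the 358 members (quartiles 217 and 1152), or 15.3 FPM. It was 475.5 over clustered members (193 and 843) and 968.5 over single members (430 and 1576). All other coding genes had a median of 416 with far wider quartiles (21 and 1191), and olfactory receptor genes, another family in tandem clusters, known from olfactory neurons, had a median of 1. The 247 other coding genes whose protein holds at least 4 C2H2 finger patterns had a median of 547. Of the members, 225 lay above the median of all coding genes, 126 of the clustered and 99 of the single ones. The mean fragments per window of clustered over single members gave a log2 ratio of -0.82 (-0.83 to -0.81).

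**Figure D1:**
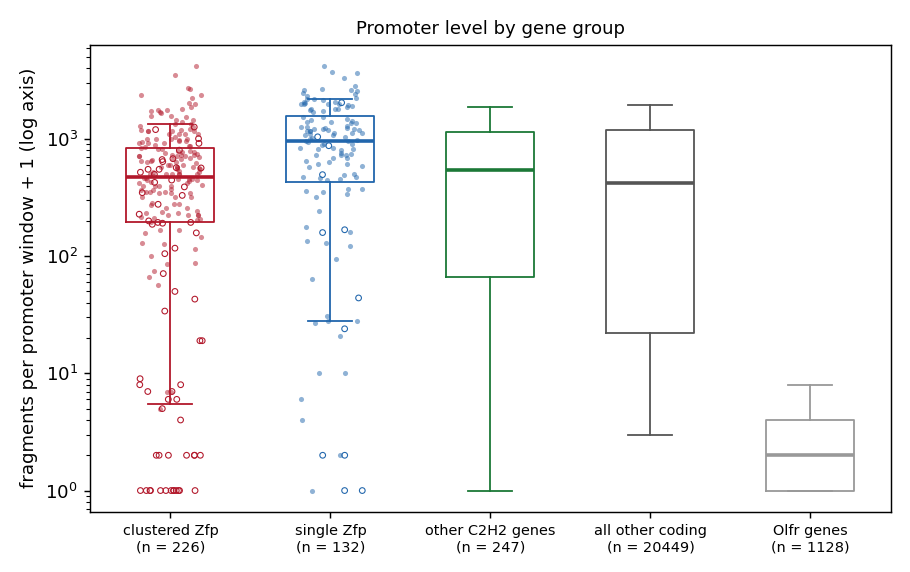
Fragments per promoter window plus 1, on a log axis, for clustered and single Zfp genes, other genes with C2H2 finger patterns, all other coding genes and olfactory receptor (Olfr) genes. Boxes give the median and quartiles, whiskers the 10th and 90th percentiles; each point is 1 Zfp gene, hollow where under 90% of the 50-base stretches of its window occur once in the genome. Single genes lie higher (median 968.5) than clustered ones (475.5), and most members near 0 are hollow.

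The 5 highest clustered members were Zfp78, Zfp524 (3532 fragments, 3416 to 3650), Zfp653 (2730), Zfp446 (2649) and Zfp868 (2375). A fragment was seen at Zfp78 in 65.4% of cells (exact binomial interval 63.8 to 67.0%) and at Zfp868 in 45.1% (43.5 to 46.7%). Both values are for the 5′-most TSS, and at their principal transcripts Zfp78 held 4 fragments and Zfp868 held 27. Within 500 bp of the TSS the level of Zfp78 was 68.7 FPM, against 108.6 FPM in the whole window, and that of Zfp687 was 70.5 FPM, against 109.0 FPM. Of these 5, Zfp868 had the KRAB pattern described below and the other 4 did not. The 5 highest single members were Zfp687, Zfp91 (3701), Zfp143 (3680), Zfp438 (3286) and Zfp319 (2849), none with the KRAB pattern. Zfp91 encodes a ubiquitin ligase of the NF-κB pathway, and Zfp143 a factor that binds many promoters and chromatin loop anchors. The windows of Zfp524, Zfp653, Zfp91 and Zfp319 overlapped that of another gene, so fragments there count for both.

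At the other end, 16 of the 358 members had 0 fragments and 44 had under 20, beside 1119 and 5049 of all 20807 coding promoters. For 35 of these 44, fewer than 90% of the 50-base stretches of the window occurred once in the genome, and such windows are called less readable here. All 12 members with under 10% such unique stretches had between 0 and 1 fragments, 11 of them 0. The median rose from 2 fragments at 10 to 50% unique to 251.5 at 50 to 90% and 729.5 at 90% or more, the last over 282 members. Of the members at 0, Zfp965 to Zfp969 and Zfp973 lie on chromosome 2 with no unique stretch, and Zfp978, Zfp979, Zfp986, Zfp989, Zfp993 and Zfp534 lie on chromosome 4 with at most 23.8%. Reads from such windows may have no single place, so a low value there does not show closed chromatin.

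The 5 lowest clustered members were at 0, with Zfp936, Zfp534, Zfp989, Zfp986 and Zfp978 first in order of readability. The 5 lowest single members were Zfp616, Zfp966 and Zfp969 at 0, then Zfp735 and Zfp352 at 1. Among readable windows, 9 members had under 20 fragments: Zfp616, Zfp735, Zfp791, Zfp111, Zfp558, Zfp708, Zfp759, Zfp42 and Zfp474. For 5 of these 9 another annotated TSS was open, with 428 fragments for Zfp708, 306 for Zfp558, 243 for Zfp759, 238 for Zfp111 and 159 for Zfp791. The other 4 stayed at or below 9 at every GENCODE and RefSeq TSS counted. Zfp42 (Rex1), a marker of pluripotent embryonic cells, was one of them with 9 fragments (4.12 to 17.1).

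A promoter was called open with at least 50 fragments and at least 3 times the level, per length, of the flanks 5 to 10 kb away. Of all autosomal coding promoters 60.5% were open, against 290 of 358 members (81.0%), 174 of 247 other C2H2 genes (70.4%) and 9 of 1128 olfactory receptor genes (0.798%). The share was nearly equal in clustered and single members, with 183 of 226 (81.0%) and 107 of 132 (81.1%). With each gene at its highest GENCODE or RefSeq TSS, 306 members (85.5%) and 63.7% of all coding genes were open. Among readable windows 153 of 162 clustered members (94.4%) and 101 of 120 single members (84.2%) were open. The open share of all coding promoters with readable windows was not taken. The 60.5% and 63.7% above include windows of any readability, so they are no like background for these shares.

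The surroundings of clustered members were low. The flanks held a median of 9.50 fragments per 2001 bp beside clustered members, 19.4 beside single ones and 22.4 beside other coding genes. Over the gene bodies beyond the promoter window the medians were 6.38, 13.1 and 13.9 fragments per kb. Zfp36 is the reverse case: it held 2064 fragments (1976 to 2155) but was not open, since its flanks held 883 per 2001 bp. Within 500 bp of the TSS the Zfp36 level was 8.51 FPM, against 53.5 FPM in the whole window. Zfp36 encodes tristetraprolin, an RNA-binding protein with CCCH fingers that destabilises cytokine mRNAs, and shares only its name with the C2H2 family. In all, 15 members had no match to the C2H2 finger pattern in the 1 transcript translated, with a median of 193 fragments. Fingers spelled otherwise were not counted, so these 15 may still carry C2H2 fingers. Of the 15, 4 had the KRAB pattern described below, as did 181 of all 358 members.

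Around the TSS, fragment ends were counted in steps of 10 bp over readable windows. The highest step held 35.3 ends per gene in clustered members, 39.3 in single members and 29.1 in other coding genes, and its centre lay 45, 25 and 25 bp upstream. With a running mean over 50 bp the maxima lay 35, 35 and 45 bp upstream, so these positions are not told apart. The highest step stood 47.4 times over the level beyond 1.5 kb in clustered members, 28.6 times in single ones and 30.5 times in the rest. The unbroken stretch around it above 50% of its height was 180 bp long in clustered members, 220 bp in single members and 250 bp in the rest. A second rise downstream was highest at 215 bp in clustered members, at 58.4% of the first, and at 225 bp in single members, at 59.9%. In other coding genes it reached 41.2% at 225 bp. Olfactory receptor genes showed no peak at the TSS.

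**Figure D2:**
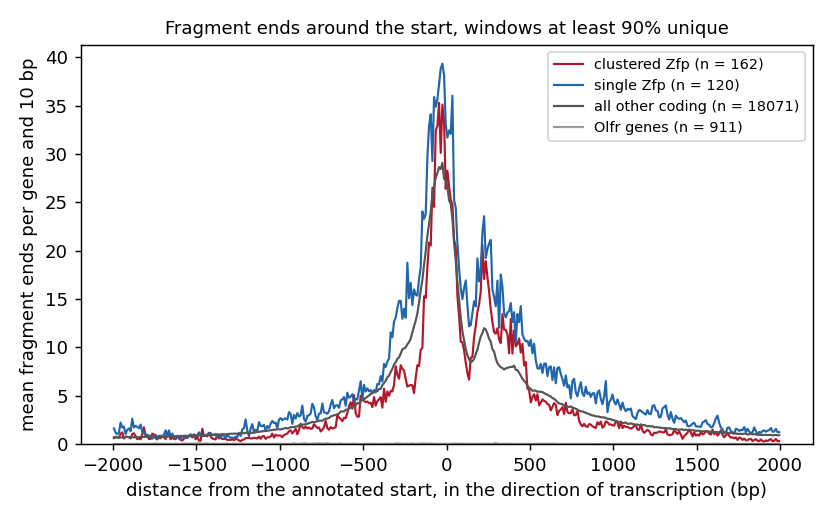
Mean fragment ends per gene and 10 bp against distance from the annotated TSS in bp, positive in the direction of transcription, for 162 clustered and 120 single Zfp genes, 18071 other coding genes and 911 olfactory receptor genes with readable windows. Clustered and single Zfp genes have their highest steps 45 and 25 bp upstream and a second rise at 215 and 225 bp downstream; the olfactory trace lies along 0.

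Level followed CpG content, here the number of CpG over that expected from the C and G of the window. Its Spearman correlation with level over the 358 members was 0.70, and 0.60 over the 282 with readable windows, given as a description since genes are not replicates. It was 0.81 over all other coding genes. The median CpG ratio was 0.449 in clustered members, 0.588 in single ones and 0.486 in other coding genes. When members were split into 3 classes of equal size by CpG ratio, at 0.389 and 0.574, the 2 kinds differed unequally across the classes. In the lowest class, 92 clustered members had a median of 151 and 27 single members 63, and their means gave a log2 ratio of -0.011 (-0.049 to 0.028). In the middle class the medians were 578.5 (84 members) and 752 (35), with a log2 ratio of -0.11 (-0.13 to -0.088). In the highest class they were 853 (50) and 1373.5 (70), with -0.58 (-0.60 to -0.57). Other coding genes had medians of 13, 611 and 1253 in these classes, and without the olfactory receptor genes the lowest class had a median of 20. In that class 62.0% of the clustered and 40.7% of the single members were open, against 18.3% of other coding genes and 21.0% of those without the olfactory receptors. CpG content was not matched within a class. The interval of the mean ratio in the lowest class held 0, while the median was higher in clustered members. With readable windows only, 40 clustered members there had a median of 280 and 19 single ones 93, and the log2 ratio of the means was 0.37 (0.32 to 0.41).

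**Figure D3:**
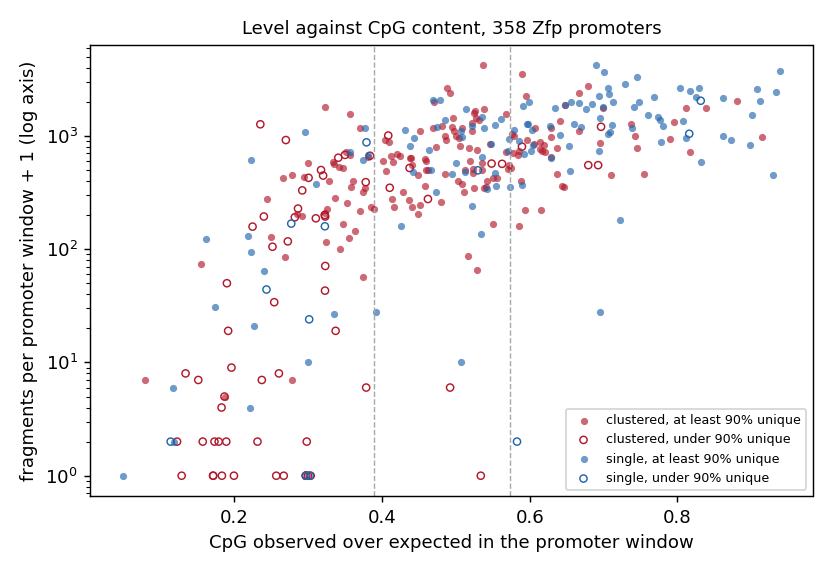
Fragments per promoter window plus 1, on a log axis, against the CpG observed over expected ratio for 358 Zfp promoters, clustered in red and single in blue, hollow where under 90% of the window is unique; dashed lines bound the 3 CpG classes. Levels rise with the CpG ratio (Spearman correlation 0.70), and above 0.574 the single members lie higher (median 1373.5 against 853).

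The KRAB pattern, a strict spelling of the KRAB box, moved with both class and level. This pattern (the letters LY, any pair, VM, any letter, E) was found in the translated principal transcript of 181 members, 150 of 226 clustered (66.4%) and 31 of 132 single (23.5%). Boxes spelled otherwise were not counted, so members without the pattern may still carry a KRAB box. Members with it had a median of 396 fragments and those without it 963. In clustered members the medians were 349 with it and 767 without, and in single members 723 and 1100. Clustered fell below single members in both, with log2 ratios of -0.72 (-0.74 to -0.70) among those with the pattern and -0.32 (-0.33 to -0.30) among those without it. The same members differed in CpG ratio (median 0.381 with the pattern, 0.586 without) and in readability (62.4% and 95.5% of windows), and the part of each in the level was not tested. The number of finger patterns, with medians of 12 in clustered and 8 in single members, had a Spearman correlation of -0.17 with level.

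Short motifs and neighbouring starts were counted next, and none of these differences was tested. In the 300 bases described above, the ETS core CCGGAA was present in 34.9% of members, 37.2% of clustered and 31.1% of single, against 17.9% of all coding promoters, and among open promoters in 37.6% against 25.5%. GGGCGG went the other way among open promoters, with 42.1% of members and 62.0% of all. CCAAT was present in 50.4% of clustered members, 36.4% of single members and 38.6% of all, and TATAAA in 6.98% of members and 12.7% of all, but in 7.24% and 7.27% among open promoters. TGACGTCA (3.63% and 2.43%) and AAGATGGC (4.75% and 2.93%) were rare. Members with GGGCGG had a median of 820 fragments and those without it 458, while for CCGGAA the medians were 597 and 585. A TSS of any gene on the opposite strand lay within 1 kb of 79 members (22.1%, against 19.0% of all coding genes). These 79 had a median of 996 fragments and the rest 500. Each of the 79 windows also holds the start on the opposite strand, so fragments at that start count towards the level.

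By position, chromosome 7 held 89 members, 76 of them clustered, with a median of 519. Chromosomes 17 (41 members, median 570), 13 (31, median 233), 4 (30, median 5), 2 (25, median 157) and 8 (24, median 918.5) followed. The low medians of chromosomes 4 and 2 go with few readable windows, 11 of 30 and 11 of 25. Members on chromosomes 6 (17, median 925) and 5 (16, median 1112.5) lay in the range of single members.

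Joining TSSs less than 200 kb apart gave 54 clusters. The 3 with most members differed in level. The largest, 19 members over 753 kb of chromosome 13, had a median of 233 and ran from Zfp738 with 5 fragments to Zfp712 with 883, with 15 of 19 open. The second, 15 members over 401 kb of chromosome 7, had a median of 500 and ran from Zfp14 with 243 (45 at its principal transcript) to Zfp566 with 1973, with all 15 open and readable. The third, 13 members over 579 kb of chromosome 17, had a median of 535 and ran from Zfp229 with 5 to Zfp51 with 1542, with 12 of 13 open. The lowest members of the first and the third have windows 68.9% and 72.0% unique, and another TSS of each was higher, with 391 fragments for Zfp738 and 340 for Zfp229. Every member of the chromosome 17 cluster and 16 of 19 on chromosome 13 had the KRAB pattern, against 11 of 15 on chromosome 7. Outside these, a cluster of 10 members on chromosome 4 had a median of 1 fragment, with 1 readable window. Another cluster, of 8 members on chromosome 7, had a median of 1093.5 and a lowest value of 678.

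**Figure D4:**
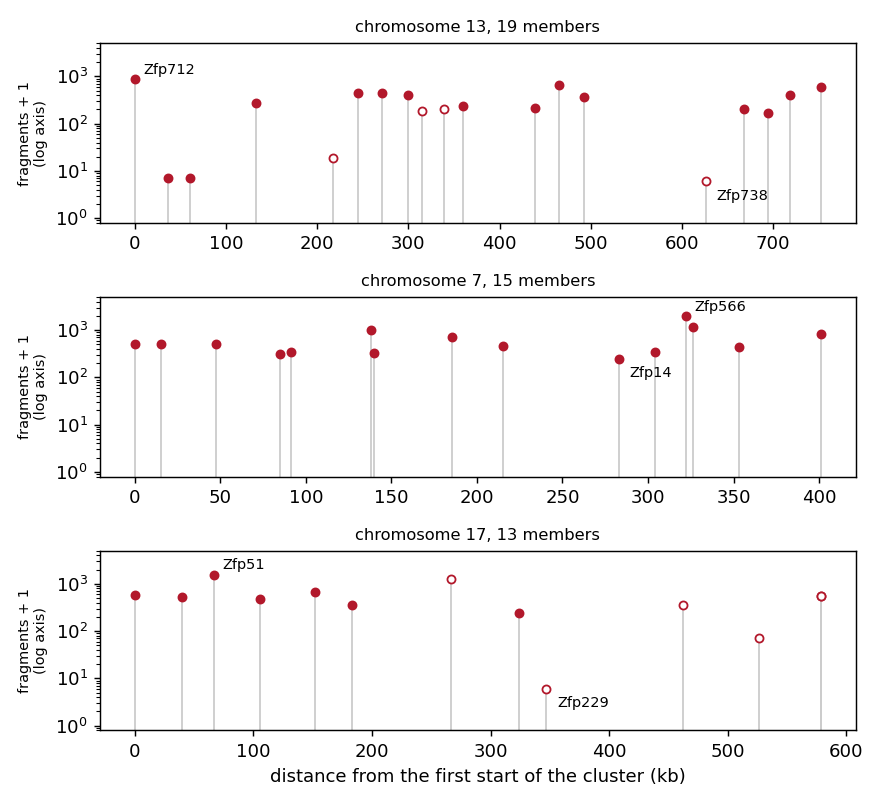
Fragments per promoter window plus 1, on a log axis, at each member of the 3 largest clusters, against distance in kb from the first TSS of the cluster; hollow points have windows under 90% unique, and the highest and lowest members are named. The chromosome 7 cluster spans 243 to 1973 fragments with no low member, while the other 2 hold members at 5.

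Neighbours inside clusters differed from each other in level. Over 110 neighbouring pairs with both windows readable, the median absolute log2 difference was 0.86 (quartiles 0.45 and 1.55), and over 10439 pairs of readable clustered members on different chromosomes it was 1.15 (0.55 and 2.02). Pairs pointing away from each other differed by 0.65 (23 pairs), pairs in tandem by 0.83 (65) and pairs facing each other by 1.15 (22). Both members were open in 99 of the 110 pairs, and in 10 only 1 was. Among all 172 neighbouring pairs, readable or not, 5 had windows that overlapped. In 3 of the 5 the TSSs were under 0.1 kb apart, so nearly the same fragments count under both names. An example outside the 110 is Zfp942 and Zfp943, with 550 fragments each. Zfp646 and Zfp668, 0.607 kb apart, shared part of their windows and held 1746 and 1330. Zfp27 and Zfp383, 1.651 kb apart, overlapped less and held 996 and 319. At their principal transcripts Zfp942 held 2 and Zfp646 held 395.

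Members with a known role in stem cells, blood or genome silencing, listed by name, ran from closed to high. Zfp521, an inhibitor of the B cell factor EBF1 that is expressed in early haematopoietic cells, held 2031 fragments (1944 to 2121), and a fragment was seen in 39.6% of cells. Its relative Zfp423, known from neural and fat cell development, held 585 (539 to 634), or 15.2 FPM, and 6.90 FPM within 500 bp of the TSS. Zfp384, a factor known from fusions in leukaemia, held 2621, and Zfp318, which acts in the choice between IgM and IgD transcripts in B cells, held 2434. Zfp335, a component of an H3K4 methyltransferase complex, held 2334. The spindle and splicing factor Zfp207 held 1797, and the GC-box binding factors Zfp148 and Zfp281 held 1391 and 1356, and at its principal transcript Zfp148 held 436. Zfp106, an RNA-binding protein of nerve and muscle, held 690. Zfp217, a co-repressor known as an oncogene, held 159 at its 5′-most TSS and 1902 at another, 16883 bp away.

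The KRAB members of known target were at different levels. Zfp809, which silences endogenous retroviruses of the VL30 and MuLV type, held 1583 fragments (1506 to 1663), and Zfp568, which silences a placental promoter of Igf2, held 462 (421 to 506) at its 5′-most TSS and 25 at its principal transcript. Zfp57, which keeps methylation at imprinted regions, held 129 (108 to 153) and was not open, with 3.35 FPM in the whole window and 0.93 FPM within 500 bp, while a TSS 1362 bp away held 398. Zfp708, which binds a family of retroviral repeats, is the member printed above with 6 and 428 fragments at its TSSs. Of 17 genes of the TRIM28 machinery that KRAB proteins recruit, 14 were open at the 5′-most TSS and all 17 at the principal transcript. Of all 20807 autosomal coding promoters, 12591 (60.5%) were open at the 5′-most TSS and 12629 at the principal transcript. The 17 genes ran from Trim28 with 6 fragments to Cbx3, an HP1 protein, with 3817, with a median of 1408. Trim28 itself, the common partner, had 2348 fragments at its principal transcript, and Atf7ip and Dnmt1, the others not open, had 1707 and 1888 there.

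The members' share of promoter fragments was also taken in each cell. The median cell had 76 fragments over the 358 windows, on 60 different members, and the median share of a cell's fragments over all coding promoters was 1.86% (lowest cell 1.07%, highest 2.73%). This spread was not set against counting error. The next question was whether the level followed the surface proteins that the study used to set apart platelet-biased (PLT) from multilineage (MUL) LT-HSCs: CD274 and CD61 high with CD357 and CD27 low on the PLT side. For each antibody the cells as near as ties allow to the highest and the lowest 25% of its counts were compared, with summed fragments scaled by nuclear fragments.

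For CD274, the immune checkpoint ligand PD-L1, 937 cells with at least 27 tags were set against 877 with at most 12. Members held 7384 FPM in the high and 7277 in the low cells, a log2 difference of 0.021 (0.0062 to 0.036). The difference was 0.013 (-0.0078 to 0.035) in clustered and 0.028 (0.0075 to 0.049) in single members, and 0.021 (0.019 to 0.023) in all other coding genes. All promoter windows together took 39.5% of nuclear fragments (39.5 to 39.6%) in the high and 39.0% (38.9 to 39.0%) in the low cells, and scaled by these promoter fragments the difference in members was 8.5e-06 (-0.015 to 0.015). The high cells also had more antibody tags in all (median 46 against 17), and within cells with at least 50 tags the difference was -0.021 (-0.065 to 0.022).

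For each of the other study antibodies the interval of the difference in members held 0. For CD61, the platelet integrin β3, members held 7348 FPM in 779 high and 7346 in 727 low cells, a log2 difference of 0.00034 (-0.016 to 0.017). For CD357, the TNF receptor GITR, they held 7320 in 968 high and 7348 in 1200 low cells, a difference of -0.0055 (-0.019 to 0.0082). For CD27, another TNF receptor, they held 7343 in 825 high and 7356 in 1578 low cells, a difference of -0.0026 (-0.016 to 0.011). The low cells for CD27 are those with 0 tags. Clustered minus single members gave -0.015 (-0.045 to 0.015) for CD274, -0.027 (-0.060 to 0.0054) for CD61, -0.0084 (-0.036 to 0.019) for CD357 and 0.0061 (-0.021 to 0.033) for CD27. The CD61 interval left out 0 when cells were split at the median (-0.026, -0.048 to -0.0052) and in cells with at least 50 tags (-0.097, -0.18 to -0.011). In the gate of 342 PLT-like cells against 61 MUL-like cells, split at the medians of all 4 antibodies, members differed by 0.042 (-0.0044 to 0.088), clustered minus single by 0.020 (-0.073 to 0.11), and other coding genes by 0.011 (0.0051 to 0.018). Gates drawn on 2 other antibody scales gave members an interval above 0. On centred log ratios, with 251 PLT-like and 252 MUL-like cells, members differed by 0.047 (0.018 to 0.076) and other coding genes by 0.023 (0.019 to 0.027). On residuals after the other antibodies, with 208 and 243 cells, they differed by 0.061 (0.031 to 0.092) and 0.028 (0.024 to 0.032). The members' interval in the gate thus held or left out 0 by the scale, and the difference between members and other genes was not tested.

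**Figure D5:**
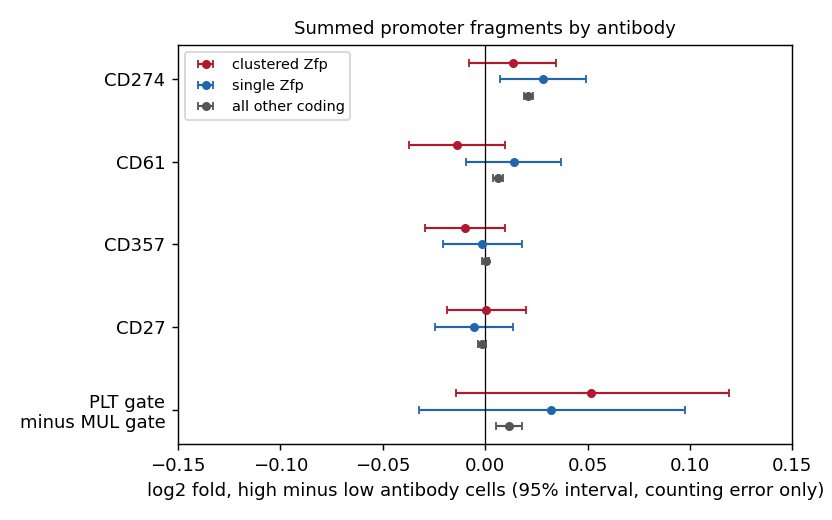
Log2 difference in summed promoter fragments, scaled by nuclear fragments, between antibody-high and antibody-low cells for CD274, CD61, CD357 and CD27 and between the PLT and MUL gates, for clustered Zfp genes, single Zfp genes and all other coding genes. Bars are 95% intervals for counting error only; the 3 groups overlap in every row, and the widest bars belong to the gate, which has 61 cells on its MUL side.

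Of the other 8 antibodies, differences in members ran from -0.010 for CD106 (-0.023 to 0.0018) to 0.025 for CD163 (-0.013 to 0.064), and the interval left out 0 for CD201 only, at 0.012 (0.00034 to 0.023). All other coding genes differed by 0.023 (0.021 to 0.024) for CD201. Their interval also left out 0 for CD68, CD106, P2X7R, CD163 and MERTK. The members' CD201 interval held 0 when scaled by promoter fragments (-0.010, -0.022 to 0.0010), without the deepest 5% of cells (0.0043, -0.0078 to 0.017), in cells with at least 50 tags and on residuals. Clustered minus single members were -0.051 (-0.090 to -0.011) for CD68, with 281 high cells, and -0.097 (-0.17 to -0.021) for CD163, with 71, both from cells with at least 1 tag against cells with 0. On centred log ratios CD68 was -0.0085 (-0.038 to 0.021) and CD163 0.0028 (-0.027 to 0.033), and on residuals they were -0.014 (-0.044 to 0.015) and -0.0056 (-0.036 to 0.025). These scales rank cells with 0 tags by their other antibodies, so most cells of the high groups lacked the tag. They thus cannot decide whether the CD68 and CD163 contrasts hold. In cells with at least 50 tags CD68 was -0.00028 (-0.090 to 0.090) and CD163 -0.21 (-0.43 to 0.0094). In the main comparison, over all 3629 cells, the clustered minus single intervals of the other 6 antibodies held 0. Among cells with at least 50 tags, the members' own interval left out 0 for CD68 at 0.066 (0.021 to 0.11), with 48 high cells. It also did for CD183 at -0.071 (-0.12 to -0.020), with 37, and for CD206 at -0.16 (-0.29 to -0.026), with 7. Clustered minus single among these cells was 0.11 (0.0049 to 0.21) for CD183.

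For the study antibodies few individual members passed the 1.5-fold mark. With at least 200 fragments over both groups, 0 of 232 members passed it for CD274 (0.338% of all promoters tested did), 0 of 207 for CD61 (0.111%), 0 of 246 for CD357 (0.125%) and 1 of 251 for CD27 (0.139%). In the gate, which had 61 cells on its MUL side, 3 of 40 members did, against 2.65% of all promoters tested. For the antibodies with few high cells more did: 48 of 272 for CD163 (14.3% of all promoters), 42 of 272 for CD206 (11.8%), 13 of 272 for CD183 (2.55%) and 11 of 272 for CD68 (1.89%), with 71, 82, 225 and 281 high cells. For these antibodies a ranking by residuals puts mostly cells without the tag in the high group, so it gives no check of these counts. For CD201 1 of 272 passed (0.0955%), and 0 for CD106 (0.111%), P2X7R (0.0477%) and MERTK (0.227%). The share whose interval lay above 0 was 13 of 232 members for CD274 (7.02% of all promoters tested), 6 of 207 for CD61 (3.94%), 6 of 246 for CD357 (3.16%) and 5 of 251 for CD27 (2.96%). Below 0 it was 5 of 232 for CD274 (3.55%), 7 of 207 for CD61 (3.39%), 4 of 246 for CD357 (3.11%) and 14 of 251 for CD27 (3.21%). For CD27 the members' share below 0 was 5.58%, above that of all promoters, and for CD61 it was 3.38%, close to it, while in the other cases the members' share was under that of all promoters.

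The members named by the fixed rule are the extremes of these same data, 2 at either end for each study antibody. Intervals that leave out 0 thus follow from the choice, and the sizes are not typical of members. Over all members tested the median log2 difference was 0.016 for CD274, -0.0036 for CD61, 0.0052 for CD357 and 0.012 for CD27. With CD274, Zfp667 was higher in the high cells, at 44.1 against 34.9 FPM (log2 0.33, 0.13 to 0.54), and Zfp503, a developmental repressor, at 14.4 against 10.4 (0.47, 0.096 to 0.86). Zfp704 was lower, at 20.6 against 26.4 (-0.36, -0.63 to -0.088), as was Zfp451, a SUMO ligase, with 175 fragments in the high and 206 in the low cells (-0.38, -0.68 to -0.082). With CD61, Zfp174 (0.39) and Zfp516 (0.43, 0.12 to 0.74), a regulator of brown fat, were higher, and Zfp692 (-0.46) and Zfp286 (-0.42) lower. With CD357, Zfp879 (0.40) and Zfp964 (0.32) were higher, and Zfp707 (-0.47) and Zfp219 (-0.19) lower. With CD27, Zfp964 (0.37) and Zfp263 (0.24) were higher, and Zfp748 and Zfp933 lower. Zfp748 was the member past 1.5-fold, with 60 fragments in the high and 171 in the low cells, or 6.53 against 10.4 FPM (-0.66, -1.12 to -0.23).

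Some of these members had an interval that left out 0 for more than 1 study antibody. CD357 and CD27 are low on the PLT side, so opposite signs with CD274 or CD61 go the same way on that axis. Zfp692, with the same sign for CD61 and CD27, went opposite ways on it. Zfp516 was 0.33 for CD274 (0.046 to 0.62) beside its 0.43 for CD61, and Zfp692 was -0.40 for CD27 (-0.69 to -0.12) beside its -0.46 for CD61. Zfp503, higher with CD274, was -0.37 with CD357 (-0.72 to -0.020), and Zfp964 was higher with both CD357 and CD27. Zfp667, higher with CD274, was -0.21 with CD27 (-0.40 to -0.020). These comparisons use the same cells, so they are not independent of each other. The members were also picked as extremes for at least 1 of these antibodies, so they do not show how members in general lie on that axis.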

How the data were processed

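Per the file headers, the authors made the fragment file from 1 ATAC library with Cell Ranger ARC 2.0.2 and the mm10 reference, and deposited 43705382 fragments with duplicate read pairs collapsed and ends shifted for the transposase. The deposited antibody table holds counts of tags per cell, which the authors obtained from CITE-seq-Count (version: not given in the sources used here). All values are counts with no normalization by the authors. Genes, TSSs and transcripts came from GENCODE M21, and RefSeq starts and the genome from GRCm38.p6. Of the 358 members, 296 had a RefSeq start. The 7 members on chromosome X were left out by the rule.

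Windows reached 1000 bp on each side of the TSS. Log2 ratios had 0.5 added to each count, with exact conditional binomial intervals; differences of ratios had normal intervals, levels exact Poisson and shares of cells exact (Clopper-Pearson) binomial ones. Fragments are not independent of the cell they came from, so these cover counting error only. With 1 library per assay no test was run. Uniqueness was the share of 50-base stretches found once in the genome on either strand, and windows with at least 90% were called readable. Finger patterns were C, 2 to 4 residues, C, 12 residues, H, 3 to 5 residues, H. Doublets were not called, and the deepest 5% of cells were left out in an alternative.

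The genes named were the 5 highest and 5 lowest clustered and single members, the highest and lowest of the 3 largest clusters, for each study antibody 2 members at either end when ordered by the nearer bound of the interval, 18 members of known role, 17 genes of the TRIM28 machinery and markers of 6 cell types. Sequences were those of the extremes and of neighbouring pairs. The members and lists were chosen with earlier results of these data known. Scripts were tested on simulated data. Alternatives were other cell filters, windows, starts, cluster distances, uniqueness, open marks, scalings and antibody scales. Tools were pandas 2.3.3, pyarrow 21.0.0, numba 0.67.0, scipy 1.17.1, numpy 2.4.6 and matplotlib 3.10.9 under Python 3.11.15.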

Additional observations from a re-analysis of the deposited data

How the results depend on the processing

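The median member level of 15.3 FPM was 13.1 with windows of 500 bp on each side, 29.7 when both ends of each fragment were counted, 13.6 at principal transcripts, 13.9 without windows shared with another gene, 18.9 with readable windows only and 18.2 over members with at least 20 fragments. It was 15.3 with no minimum of tags, 14.6 with at least 50 tags and 15.2 without the deepest 5% of cells. At the highest GENCODE or RefSeq start, an alternative added after seeing the data, it was 16.1. No interval for a median over genes was taken.

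The log2 ratio of clustered over single members, -0.82, was -0.73 at 500 bp, -0.81 with fragment ends, -0.91 at principal transcripts, -0.80 at the highest start, -0.68 with clusters at 100 kb, -0.75 with neighbours of any name, -0.86 without shared windows, -0.59 with readable windows and -0.70 with at least 20 fragments. From low to high CpG it was -0.011, -0.11 and -0.58, and with readable windows (added after seeing the data) 0.37, -0.057 and -0.57. With and without the KRAB pattern (also added) it was -0.72 and -0.32. The 290 open members of 358 were 299 at 2 times the flanks, 280 at 5 times and 292 with 500 bp on each side. They were 276 at principal transcripts and 306 at the highest start. With readable windows only, 254 of 282 were open. Of all 20807 coding genes, 12591 were open in the main setting, 12629 at principal transcripts and 13254 at the highest start.

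By antibody, cells with at least 50 tags (363 of 3629) gave members -0.021 for CD274, 0.014 for CD357 and -0.023 for CD27, and clustered minus single 0.019 for CD274, -0.097 for CD61 and -0.036 for CD27. Scaled by promoter fragments, the members' CD274 value was 8.5e-06 and CD201 value -0.010. The CD163 contrast of clustered minus single was 0.0028 on a centred log ratio, where most cells of the high group lacked the tag. With at least 50 fragments, 2 of 297 members passed 1.5-fold for CD274 (2.01% of all promoters), 4 of 292 for CD61 (1.92%), 4 of 298 for CD357 (1.36%), 4 of 299 for CD27 (1.30%) and 49 of 214 in the gate (14.1%), where 15 intervals left out 0 (4.90%). With at least 400, 0 of 177 passed for CD27 (0% of all) and 0 of 3 in the gate (0.680%), where 0 intervals left out 0 (8.16%), and 7 of 116 left it out for CD61 (6.73%) and 5 of 165 for CD357 (5.96%). On residuals 0 of 231 passed for CD27 (0.113%) and 1 of 47 in the gate (0.488%). The gate gave no value in cells with at least 50 tags. Intervals that came to hold or leave out 0 are given with the results above. The causes were not tested.

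No paired analysis was possible because each group held 1 library. The limits are the depth per gene, the single pool, the windows in which reads have no single place, and the choice of 1 TSS where a gene has several.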
